A study of Homo sapiens with 6 samples.

Results

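The genes described here were nearly silent in RS4;11 leukemia cells given asparagine and gave reads in every library of cells deprived of it. They were chosen by their values: a mean under 1 CPM over the 3 libraries with asparagine and at least 3 CPM in each of the 3 depleted libraries, where CPM is the authors' value, a read number scaled for depth. Of the 11911 genes in the deposited table, 68 met both bounds, and 62 are described after 6 were set aside by name: INHBE, GDF15, SLC12A3, SLC16A6, CEBPB-AS1 and MIR22HG. Because both groups of libraries chose the members, the difference between the groups is given below as a description and is not tested.

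RS4;11 is a human cell line of acute lymphoblastic leukemia, of precursor B-cell type and with a KMT2A::AFF1 fusion, and both groups are this same line. By their titles, 3 samples lacked asparagine and 3 had it, with RNA taken 16 hours after withdrawal. The labels enter asparagine-free medium with dialyzed serum for all 6 samples, so how the cells with asparagine were supplied is not stated, and the short name on the depleted columns could also stand for asparaginase. Replicates are numbered 1 to 3 in each group, and nothing says that they were separate cultures, so any spread or p-value given here measures differences between libraries of 1 cell line that may be technical.

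When a cell runs short of an amino acid, uncharged transfer RNA activates the kinase GCN2, which phosphorylates the initiation factor eIF2; general translation falls while the transcription factor ATF4 is made and induces genes for amino acid supply. ATF4 works with C/EBP partners at short composite DNA elements. Its targets include further transcription factors, CHOP among them.

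The table held 29971364 to 40577308 reads in the depleted libraries and 36611101 to 51127073 with asparagine, and 3 reads were worth 0.0704 to 0.0920 CPM in depleted libraries and 0.0598 to 0.0843 CPM in those with asparagine. Depleted library 1 stood apart from the other two of its group: across genes its log2 values correlated at 0.940 and 0.934 with theirs, which correlated at 0.996 with each other. With the libraries with asparagine, depleted library 1 correlated at 0.927 to 0.928, and depleted libraries 2 and 3 at 0.846 to 0.883. Without depleted library 1 the rule found 68 members, and the 62 had a median log2 fold change of 2.54, against 2.52 with it. Over the 62 members the reads summed to 26962, 20852 and 23293 in depleted libraries 1, 2 and 3, against 1111, 922 and 1284 in libraries 1, 2 and 3 with asparagine. In CPM these sums were 633, 639 and 624 in the depleted libraries and 31.2, 25.4 and 25.6 with asparagine. The 3 depleted libraries gave nearly the same total. In bulk RNA, a few cells with much of a transcript and many cells with little cannot be told apart.

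Promoter sequence is shown for the members that carry a composite ATF4 and C/EBP motif, since this is the element through which the amino acid response is known to act. Windows of 300 bases, from 250 before to 50 after each RefSeq start on GRCh38.p14, were found for 50 of the 62 members (76 windows, as some genes have several starts). The motif TGATGNAA was searched on both strands and is printed in capitals, 5′ to 3′ along the gene. LOC102724467, a long non-coding RNA gene at chr16:87779099-87779398 (minus strand), held the strict form TGATGCAA once on each strand, 170 and 46 bases before its start. The window of ALPK2, an alpha-kinase gene, at chr18:58629042-58629341 (minus strand) held 2 matches, 1 of them 16 bases after the start. KLHDC7B, a kelch-domain gene, at chr22:50545649-50545948 (plus strand) and EIF4E3, a cap-binding protein gene, at chr3:71729069-71729368 (minus strand) held 1 each. The EIF4E3 match was in the window of a start inside the gene. Windows of EIF4E3 nearer its 5′ end, at chr3:71754724-71755023 and chr3:71754449-71754748, held none.
LOC102724467: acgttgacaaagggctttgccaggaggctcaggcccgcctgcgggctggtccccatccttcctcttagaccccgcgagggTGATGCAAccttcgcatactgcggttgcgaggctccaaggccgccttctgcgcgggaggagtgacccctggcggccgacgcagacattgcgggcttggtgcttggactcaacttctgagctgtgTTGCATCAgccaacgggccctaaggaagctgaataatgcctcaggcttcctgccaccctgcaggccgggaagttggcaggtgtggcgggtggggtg
ALPK2: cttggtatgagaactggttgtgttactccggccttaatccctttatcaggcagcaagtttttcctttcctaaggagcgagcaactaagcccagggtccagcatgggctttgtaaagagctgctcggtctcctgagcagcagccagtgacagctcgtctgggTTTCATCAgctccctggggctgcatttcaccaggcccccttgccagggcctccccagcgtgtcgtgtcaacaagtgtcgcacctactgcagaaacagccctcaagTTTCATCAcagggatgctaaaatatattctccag
KLHDC7B: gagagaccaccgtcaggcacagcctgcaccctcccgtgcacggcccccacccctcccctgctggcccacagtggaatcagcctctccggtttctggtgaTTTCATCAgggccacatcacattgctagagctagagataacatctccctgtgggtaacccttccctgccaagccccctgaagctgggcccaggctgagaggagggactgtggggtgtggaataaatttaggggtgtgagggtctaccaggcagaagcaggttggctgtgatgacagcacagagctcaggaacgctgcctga
EIF4E3: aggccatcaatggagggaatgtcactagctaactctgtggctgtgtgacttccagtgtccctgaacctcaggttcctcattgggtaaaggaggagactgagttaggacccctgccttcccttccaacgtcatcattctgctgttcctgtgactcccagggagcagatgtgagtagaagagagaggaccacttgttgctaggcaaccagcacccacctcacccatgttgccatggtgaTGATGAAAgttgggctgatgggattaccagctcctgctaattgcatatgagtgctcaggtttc

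These 4 windows were 5.26% of the members' windows, against 1.93% of the 13076 windows of genes in the deposited table and 3.62% of all 35116 windows. The other 46 members with a window had no match, which says only that these letters are not in those 300 bases. The strict form was in 1 of the 76 windows (1.32%), against 0.482% of the table's windows. The AP-1 motif TGANTCA was in 3 windows (3.95%, those of ANKRD24, ERICH2 and KCNMA1), against 4.68% in the table. The cyclic AMP response element TGACGTCA was in 1 window, of ASXL3 (1.32%, against 2.84%), and its core TGACG, which lies within it, in 21 (27.6%, against 32.2%). The E-box CACGTG was in 4 windows (5.26%, against 9.54%), and the CLEAR core TCACGTG, which contains it and is known from lysosomal genes, in 2 (2.63%, against 5.34%). The heat shock pair GAANNTTC was in 7 windows (9.21%, against 4.83%), among them those of FAM129A, TMTC1 and TOX2. CCAAT was in 25 (32.9%, against 35.01%), CCACG in 33 (43.4%, against 48.6%) and both in 8 (10.5%, against 16.2%), and TATAAA was in 5 (6.58%, against 5.83%). Median GC content of the windows was 60.7% for members and 64.7% for genes in the table.

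**Figure D1:**
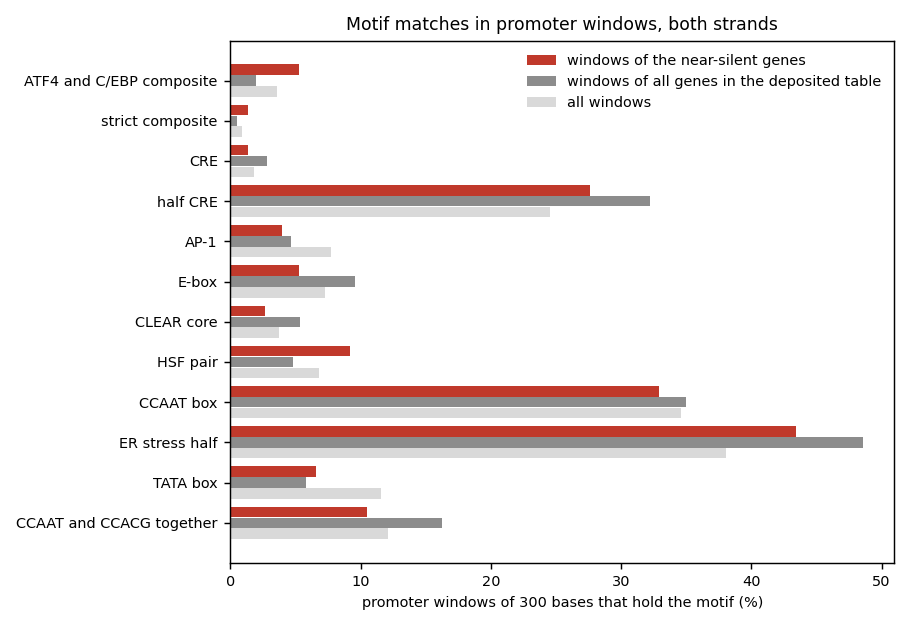
Share of 300-base promoter windows holding each motif on either strand (x axis, percent), for windows of the members (red, 76), of all genes in the deposited table (dark grey, 13076) and all windows (light grey, 35116). The ATF4 and C/EBP composite stands at 5.26% of member windows against 1.93% in the table, on 4 windows.

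Across the 62 members, depleted means ran from 3.35 CPM (ANKRD24) to 43.7 CPM (FAM129A), with a median of 6.85 CPM, and means with asparagine from 0 (ESRP1) to 0.982 CPM (PARD3B), with a median of 0.444 CPM. The ratio of group means was at least 10-fold for 44 members, at least 50-fold for 16 and at least 100-fold for 9, counting ESRP1, which had no read with asparagine. The bounds alone put every member at least 3-fold higher by its means, again with ESRP1 counted. Over all genes in the table, 4.49% were at least 3-fold and 0.672% at least 10-fold higher in depleted cells. The largest log2 fold change on the log2(CPM + 1) scale, which understates the change of such low genes, was 5.11 (SE 0.14) for FAM129A and the smallest was 1.27 (SE 0.17) for SCUBE3. The median was 2.52, beside 0.01 over all 11892 genes tested. Rescaling each column to the same total moved the median of all genes to 0.14 and that of the members to 2.61.

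All 62 passed the low-value filter of the fit across all genes, which their depleted values alone ensured. All 62 had an adjusted p under 0.05 in limma's moderated test with Benjamini-Hochberg adjustment, where 25.1% of genes were called higher (2987) and 26.2% lower (3116); the split was 3661 and 2530 with columns rescaled to the same total. In all 62 each depleted library lay above each library with asparagine, as it did for 30.2% of genes tested. Nothing is read from either count, since the rule used these values. The table held 117 genes with a mean under 1 CPM with asparagine; besides the 68, 25 reached 3 CPM in some depleted library but not in all, and 24 in none. No listed gene had a highest library under 0.540 CPM, so these counts say nothing of genes silent in both groups. In the opposite direction, 81 genes had a mean under 1 CPM in depleted cells. Of these, 20 had at least 3 CPM in each library with asparagine, with none set aside by name, as in the count of 68.

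**Figure D2:**
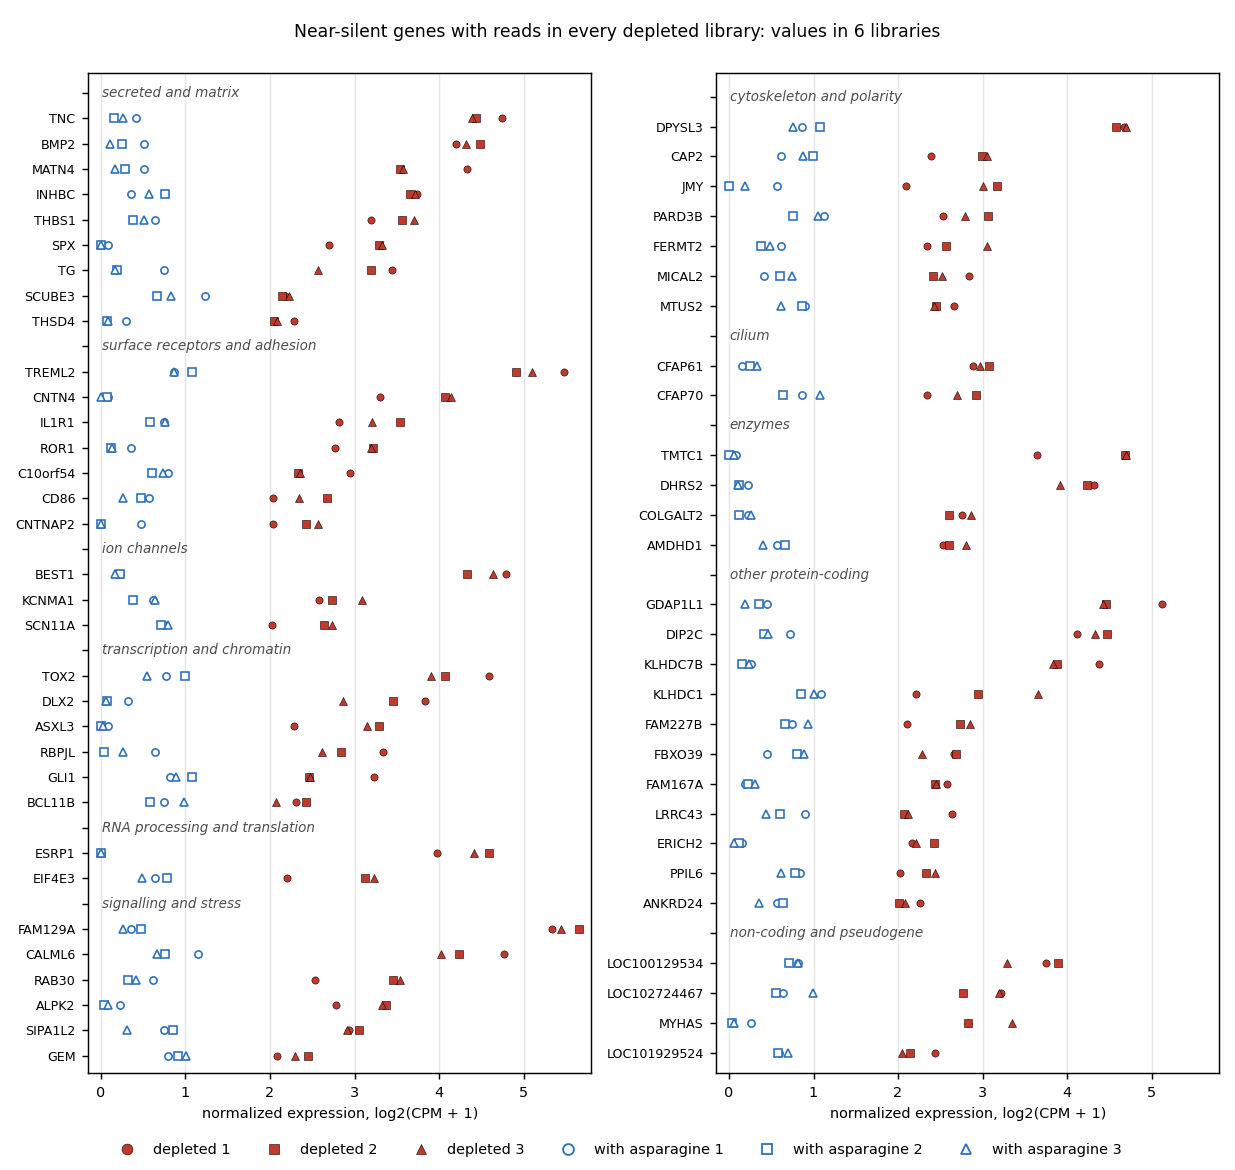
Normalized expression of 61 of the 62 members as log2(CPM + 1) (x axis) in each of the 3 depleted libraries (red, filled) and the 3 libraries with asparagine (blue, open), with genes grouped by known role and ordered by their depleted mean. Every red symbol lies to the right of the blue symbols of its row, as the rule requires, and FAM129A and TREML2 reach the highest depleted values.

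Levels between genes can be compared only per length, here per kilobase of exons in GENCODE 29, which 59 members have. On that scale (CPM per kilobase in depleted cells) TREML2 was first at 10.7, then CALML6 at 8.52, GDAP1L1 at 7.40, ERICH2 at 6.38 and INHBC at 6.03. The lowest were KCNMA1 at 0.170, THSD4 at 0.215 and CNTNAP2 at 0.248. These ranks depend on the annotated exons, merged over all transcripts of a gene, which the cells need not use in full. ERICH2 has the shortest merged exons of the members, 601 bases, and KCNMA1 the longest, 35644 bases. The median over all genes was 5065 bases. The median of all genes in the table was 8.42 CPM per kilobase, and 2 of the 59 members, TREML2 and CALML6, exceeded it. The members had a median of 1.22 CPM per kilobase in depleted cells and 0.0747 with asparagine.

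Stress and signalling genes included the member with the highest CPM. FAM129A, the older symbol of NIBAN1, a stress-induced gene known as a target of the amino acid response (chromosome 1, 184790724 to 184974550, GRCh38), had 39.2, 49.3 and 42.5 CPM in depleted libraries 1, 2 and 3, against 0.281, 0.386 and 0.199 CPM with asparagine, a ratio of 151-fold. CALML6, a calmodulin-like gene (chromosome 1, 1914827 to 1917296), had 26.2, 17.9 and 15.3 CPM in depleted libraries 1, 2 and 3, against 1.21, 0.689 and 0.578 CPM with asparagine. FAM129A was lowest in depleted library 1 and CALML6 was highest there. ALPK2 had 5.84, 9.35 and 9.01 CPM in the depleted libraries and 0.169, 0.0276 and 0.0598 CPM with asparagine, on 10 reads in all with asparagine. RAB30, a small GTPase gene of the Golgi, had 4.76, 9.96 and 10.6 CPM in the depleted libraries and 0.534, 0.248 and 0.339 CPM with asparagine. SIPA1L2, which encodes a regulator of Rap GTPases, had 6.62, 7.27 and 6.51 CPM in the depleted libraries and 0.675, 0.800 and 0.239 CPM with asparagine, and its 3 depleted values lay close together. GEM, a small GTPase gene whose product inhibits calcium channels, had 3.24, 4.45 and 3.91 CPM in the depleted libraries and 0.731, 0.882 and 1.02 CPM with asparagine, the lowest ratio of this group at 4.41-fold.

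Secreted signals and matrix proteins made up 9 members. BMP2, a bone morphogenetic protein (chromosome 20, 6767664 to 6780280), had 17.4, 21.3 and 18.9 CPM in depleted libraries 1, 2 and 3, against 0.422, 0.193 and 0.0797 CPM with asparagine, a ratio of 83.0-fold. TNC, tenascin C of the extracellular matrix (chromosome 9, 115019578 to 115118257), had 25.8, 20.7 and 19.9 CPM in depleted libraries 1, 2 and 3, against 0.337, 0.110 and 0.199 CPM with asparagine, and its ratio was 103-fold. THBS1, thrombospondin 1, had 8.12, 10.8 and 12.04 CPM in the depleted libraries and 0.562, 0.303 and 0.418 CPM with asparagine. BMP2 and THBS1 were lowest in depleted library 1, where TNC was highest. MATN4, a matrilin gene of cartilage-type matrix (chromosome 20, 45293445 to 45308529), had 19.1, 10.6 and 10.9 CPM in depleted libraries 1, 2 and 3, against 0.422, 0.221 and 0.120 CPM with asparagine. INHBC, which encodes the activin beta C subunit, had 12.3, 11.6 and 12.1 CPM in depleted libraries 1, 2 and 3, against 0.281, 0.689 and 0.478 CPM with asparagine, the narrowest depleted range of all members with a coefficient of variation of 3.41%. SPX, the gene of the peptide hormone spexin, had 5.47, 8.77 and 9.01 CPM in the depleted libraries and 0.0562, 0 and 0 CPM with asparagine. SPX was almost without reads in cells with asparagine: 2 reads in all, both in library 1, so that its pooled ratio of 464-fold has an exact 95% counting interval of 128 to 3834. TG, thyroglobulin, the precursor of thyroid hormone, had 9.84, 8.18 and 4.93 CPM in the depleted libraries and 0.675, 0.138 and 0.120 CPM with asparagine. TG overlaps SLA on the opposite strand. SLA averaged 102 CPM in depleted cells and 52.2 CPM with asparagine (limma log2 fold change 0.95, adjusted p = 0.00109). Without a stated strand setting, reads from this overlap cannot be told apart. THSD4, a gene for a microfibril-associated protein, had 3.85, 3.13 and 3.24 CPM in the depleted libraries and 0.225, 0.0551 and 0.0598 CPM with asparagine. SCUBE3, encoding a secreted EGF-domain glycoprotein, had 3.52, 3.40 and 3.67 CPM in the depleted libraries and 1.35, 0.579 and 0.777 CPM with asparagine, and with a mean of 0.902 CPM with asparagine its ratio of 3.92-fold was the lowest of the members.

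Surface receptors and adhesion molecules numbered 7. TREML2, a TREM-family receptor known on B cells and myeloid cells (chromosome 6, 41190277 to 41201194), averaged 35.3 ± 7.44 CPM in depleted cells and 0.912 ± 0.166 CPM with asparagine (SD, n = 3 each). Its values were 43.6, 29.1 and 33.3 CPM in depleted libraries 1, 2 and 3, against 0.815, 1.10 and 0.817 CPM with asparagine. CNTN4, a contactin gene of axons (chromosome 3, 2098813 to 3057956), had 8.87, 15.8 and 16.7 CPM in depleted libraries 1, 2 and 3, against 0.0562, 0.0551 and 0 CPM with asparagine, on 4 reads in all with asparagine. Depleted library 1 was highest for TREML2 and lowest for CNTN4. IL1R1, the interleukin 1 receptor, had 6.06, 10.6 and 8.23 CPM in the depleted libraries and 0.675, 0.496 and 0.697 CPM with asparagine. ROR1, a receptor for WNT5A known as a surface antigen of some B-cell leukemias, had 5.82, 8.28 and 8.18 CPM in the depleted libraries and 0.281, 0.0827 and 0.0996 CPM with asparagine. CD86, a costimulatory ligand for CD28, had 3.10, 5.40 and 4.07 CPM in the depleted libraries and 0.478, 0.386 and 0.199 CPM with asparagine. These 3 were lowest in depleted library 1. C10orf54, the older symbol of VSIR, which encodes the T-cell inhibitory ligand VISTA, had 6.71, 4.05 and 4.10 CPM in the depleted libraries and 0.731, 0.524 and 0.658 CPM with asparagine, and was highest in depleted library 1. CNTNAP2, a neurexin-like gene of myelinated axons, had 3.10, 4.35 and 4.93 CPM in the depleted libraries and 0.394, 0 and 0 CPM with asparagine, and its 14 reads with asparagine were all in library 1.

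Ion channel genes were 3. BEST1, a calcium-activated chloride channel gene of the retinal pigment epithelium (chromosome 11, 61949821 to 61965515), had 26.7, 19.0 and 23.9 CPM in depleted libraries 1, 2 and 3, against 0.169, 0.165 and 0.120 CPM with asparagine, a ratio of 154-fold. KCNMA1, the large-conductance potassium channel, had 4.98, 5.67 and 7.48 CPM in the depleted libraries and 0.534, 0.303 and 0.558 CPM with asparagine. SCN11A, a sodium channel gene of pain-sensing neurons, had 3.07, 5.21 and 5.63 CPM in the depleted libraries and 0.675, 0.634 and 0.737 CPM with asparagine, and the lowest of its depleted values, in library 1, was close to the bound of 3 CPM. BEST1 overlaps FTH1, the ferritin heavy chain gene, on the opposite strand, and FTH1 averaged 263.7 CPM in depleted cells and 274 CPM with asparagine (limma log2 fold change -0.24, adjusted p = 0.626). Without a stated strand setting, reads of such pairs cannot be told apart.

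Transcription and chromatin regulators were 6. TOX2, an HMG-box factor gene (chromosome 20, 43914864 to 44069616), had 23.0, 15.8 and 13.99 CPM in depleted libraries 1, 2 and 3, against 0.703, 0.993 and 0.458 CPM with asparagine. DLX2, a homeobox gene of forebrain and craniofacial development (chromosome 2, 172099439 to 172102900), had 13.3, 9.99 and 6.27 CPM in depleted libraries 1, 2 and 3, against 0.253, 0.0551 and 0.0399 CPM with asparagine, a ratio of 84.9-fold. RBPJL, a pancreatic relative of the Notch effector RBPJ, had 9.06, 6.16 and 5.12 CPM in the depleted libraries and 0.562, 0.0276 and 0.199 CPM with asparagine. These 3 were highest in depleted library 1, and their transcripts are GC-rich, from 58.5% to 62.9%. ASXL3, a polycomb-associated gene, had 3.87, 8.74 and 7.85 CPM in the depleted libraries and 0.0562, 0 and 0.0199 CPM with asparagine. With 3 reads over the group with asparagine, its pooled ratio of 269-fold has an exact 95% counting interval of 91.5 to 1305. GLI1, the hedgehog pathway transcription factor, had 8.40, 4.51 and 4.53 CPM in the depleted libraries and 0.759, 1.10 and 0.857 CPM with asparagine. BCL11B, a transcription factor gene of T-cell commitment, had 3.94, 4.38 and 3.19 CPM in the depleted libraries and 0.675, 0.496 and 0.976 CPM with asparagine, and its depleted values stayed just above 3 CPM.

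In RNA metabolism there were 2 members. ESRP1, an epithelial splicing regulator (chromosome 8, 94641074 to 94707466), had 14.7, 23.0 and 20.2 CPM in depleted libraries 1, 2 and 3 and 0 reads in all 3 libraries with asparagine. Taking 3 reads over that group as the limit, it was at least 785-fold higher in depleted cells. EIF4E3, a member of the cap-binding eIF4E family, had 3.61, 7.69 and 8.42 CPM in the depleted libraries and 0.562, 0.717 and 0.399 CPM with asparagine. Depleted library 1 was lowest for both.

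Cytoskeleton, adhesion and polarity genes were 7. DPYSL3, a growth-cone protein of the collapsin response family (chromosome 5, 147390811 to 147510056), had 24.4, 23.0 and 24.9 CPM in depleted libraries 1, 2 and 3, against 0.815, 1.10 and 0.697 CPM with asparagine, with a coefficient of variation of 4.25% among depleted libraries. CAP2, a cyclase-associated actin regulator, had 4.25, 6.96 and 7.27 CPM in the depleted libraries and 0.534, 0.993 and 0.837 CPM with asparagine. JMY, a p53 cofactor that also nucleates actin, had 3.29, 8.001 and 6.997 CPM in the depleted libraries and 0.478, 0 and 0.139 CPM with asparagine, and in library 2 with asparagine it had no read. DPYSL3 was level across depleted libraries, whereas CAP2 and JMY were lowest in library 1. FERMT2, kindlin 2 of integrin adhesions, had 4.06, 4.90 and 7.27 CPM in the depleted libraries and 0.534, 0.303 and 0.399 CPM with asparagine. PARD3B, a polarity scaffold gene, had 4.76, 7.33 and 5.90 CPM in the depleted libraries and 1.18, 0.689 and 1.08 CPM with asparagine. MICAL2, which encodes an actin-oxidizing enzyme, had 6.15, 4.32 and 4.72 CPM in the depleted libraries and 0.337, 0.524 and 0.677 CPM with asparagine. The mean of PARD3B with asparagine was the closest of all members to the bound of 1 CPM, and 2 of its values there exceeded it. MTUS2, a microtubule-associated gene, had 5.35, 4.48 and 4.37 CPM in the depleted libraries and 0.872, 0.827 and 0.538 CPM with asparagine. It lies 3462 bases from SLC7A1, a cationic amino acid transporter gene on the opposite strand that averaged 513 CPM in depleted cells and 241 CPM with asparagine.

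Enzymes numbered 4. TMTC1, an O-mannosyltransferase gene of the endoplasmic reticulum (chromosome 12, 29500840 to 29784759), had 11.5, 24.7 and 24.9 CPM in depleted libraries 1, 2 and 3, against 0.0562, 0 and 0.0399 CPM with asparagine, on 4 reads in all with asparagine. DHRS2, a short-chain dehydrogenase gene (chromosome 14, 23630115 to 23645639), had 19.0, 17.7 and 14.05 CPM in depleted libraries 1, 2 and 3, against 0.169, 0.0827 and 0.0797 CPM with asparagine, a ratio of 153-fold. COLGALT2, a collagen galactosyltransferase gene, had 5.77, 5.06 and 6.30 CPM in the depleted libraries and 0.169, 0.0827 and 0.199 CPM with asparagine. TMTC1 was lowest in depleted library 1, DHRS2 highest there, and COLGALT2 in between. AMDHD1, an enzyme of histidine breakdown, had 4.76, 5.06 and 5.98 CPM in the depleted libraries and 0.478, 0.579 and 0.319 CPM with asparagine. Of 2 cilium genes, CFAP61 had 6.38, 7.42 and 6.81 CPM in the depleted libraries and 0.112, 0.193 and 0.259 CPM with asparagine. CFAP61 overlaps CRNKL1 on the opposite strand (70.1 CPM in depleted cells, 47.7 CPM with asparagine), and without strand the overlapping reads cannot be told apart. The other, CFAP70, had 4.08, 6.59 and 5.47 CPM in the depleted libraries and 0.815, 0.551 and 1.12 CPM with asparagine.

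The remaining protein-coding members were 11. GDAP1L1, a relative of the mitochondrial fission gene GDAP1 (chromosome 20, 44247099 to 44280917), had 33.7, 21.0 and 20.4 CPM in depleted libraries 1, 2 and 3, against 0.365, 0.276 and 0.139 CPM with asparagine, a ratio of 96.2-fold. DIP2C (chromosome 10, 274190 to 689668) had 16.4, 21.2 and 19.1 CPM in depleted libraries 1, 2 and 3, against 0.647, 0.331 and 0.379 CPM with asparagine. KLHDC7B (chromosome 22, 50545891 to 50551023) had 19.7, 13.8 and 13.2 CPM in depleted libraries 1, 2 and 3, against 0.197, 0.110 and 0.179 CPM with asparagine. GDAP1L1 and KLHDC7B were highest in depleted library 1, and both ratios were close to 96-fold. KLHDC1, another kelch-domain gene, had 3.61, 6.68 and 11.6 CPM in the depleted libraries and 1.12, 0.800 and 1.02 CPM with asparagine, the widest depleted spread of all members with a coefficient of variation of 55.2%. ERICH2 had 3.47, 4.38 and 3.65 CPM in the depleted libraries and 0.112, 0.0827 and 0.0399 CPM with asparagine, on 9 reads in all with asparagine. FAM167A had 4.95, 4.41 and 4.48 CPM in the depleted libraries and 0.141, 0.165 and 0.239 CPM with asparagine. Both stayed within 0.0399 to 0.239 CPM in the libraries with asparagine. FAM227B had 3.31, 5.64 and 6.19 CPM in the depleted libraries and 0.675, 0.579 and 0.917 CPM with asparagine. FBXO39, an F-box gene, had 5.35, 5.43 and 3.86 CPM in the depleted libraries and 0.365, 0.744 and 0.857 CPM with asparagine. LRRC43 had 5.23, 3.19 and 3.35 CPM in the depleted libraries and 0.872, 0.524 and 0.359 CPM with asparagine. In these 3 the groups were separated by smaller ratios, from 6.71 to 7.44-fold. PPIL6, a cyclophilin-like gene, had 3.07, 4.02 and 4.397 CPM in the depleted libraries and 0.787, 0.717 and 0.538 CPM with asparagine. ANKRD24 had 3.78, 3.03 and 3.24 CPM in the depleted libraries and 0.478, 0.551 and 0.279 CPM with asparagine.

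Non-coding members were 4. LOC100129534, a transcribed pseudogene in RefSeq (chromosome 1, 2350414 to 2352661), had 12.5, 13.8 and 8.74 CPM in depleted libraries 1, 2 and 3, against 0.759, 0.634 and 0.757 CPM with asparagine; reads of a pseudogene may be shared with its parent gene, so its value is uncertain. It overlaps MORN1, which averaged 24.96 CPM in depleted cells and 3.12 CPM with asparagine (limma log2 fold change 2.61, adjusted p = 0.000512). LOC101929524, named RETREG1-AS1 in RefSeq (chromosome 5, 16615926 to 16629969), had 4.44, 3.40 and 3.14 CPM in the depleted libraries and 0.506, 0.496 and 0.618 CPM with asparagine. It overlaps FAM134B, the older symbol of the endoplasmic reticulum autophagy receptor RETREG1, which averaged 40.1 CPM in depleted cells and 4.86 CPM with asparagine (limma log2 fold change 2.78, adjusted p = 0.000233). Both host genes were thus higher in the same libraries, and without strand the overlapping reads cannot be told apart. LOC102724467, with its 2 strict composite motifs shown above, had 8.33, 5.82 and 8.18 CPM in depleted libraries 1, 2 and 3, against 0.562, 0.469 and 0.996 CPM with asparagine. It lies 338 bases from KLHDC4 (47.4 CPM in depleted cells, 45.7 CPM with asparagine) and 50874 bases from the leucine transporter gene SLC7A5 (855 CPM in depleted cells, 585 CPM with asparagine, limma adjusted p = 0.0593). MYHAS, an antisense transcript across the myosin heavy chain cluster (chromosome 17, 10383144 to 10623886), had 6.08, 6.10 and 9.17 CPM in depleted libraries 1, 2 and 3, against 0.197, 0.0276 and 0.0399 CPM with asparagine, on 10 reads in all with asparagine.

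Position in the genome was not used to choose the members. The pair MATN4 and RBPJL overlap by 1679 bases on opposite strands of chromosome 20, and without strand reads from that overlap cannot be told apart. INHBC, INHBE and GLI1 follow each other on the same strand of chromosome 12 with gaps of 1494 and 854 bases. INHBE, the activin beta E gene set aside by name, had 80.7, 51.3 and 50.3 CPM in depleted libraries 1, 2 and 3, against 0.562, 0.744 and 0.558 CPM with asparagine. INHBC upstream of it averaged 12.02 ± 0.410 CPM in depleted cells and 0.483 ± 0.204 CPM with asparagine (SD, n = 3 each). GLI1 downstream averaged 5.81 ± 2.24 CPM in depleted cells and 0.906 ± 0.177 CPM with asparagine (SD, n = 3 each). All 3 met both bounds, so their groups could not overlap. Beyond GLI1, ARHGAP9 overlaps its end by a few bases on the opposite strand and averaged 38.8 CPM in depleted cells and 34.8 CPM with asparagine (limma log2 fold change 0.13, adjusted p = 0.588). Further along, MARS, the methionyl-tRNA synthetase gene, averaged 641 CPM in depleted cells and 294 CPM with asparagine (limma adjusted p = 0.00174), and DDIT3, the CHOP gene, 233 CPM in depleted cells and 22.5 CPM with asparagine (limma adjusted p = 5.17e-05). MBD6, the next gene, averaged 165 CPM in depleted cells and 106 CPM with asparagine (limma adjusted p = 0.0338). For DCTN2 these means were 111 and 80.5 CPM (limma adjusted p = 0.0266). On the other side of INHBC, R3HDM2 averaged 97.9 CPM in depleted cells and 53.7 CPM with asparagine (limma adjusted p = 0.00204).

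**Figure D3:**
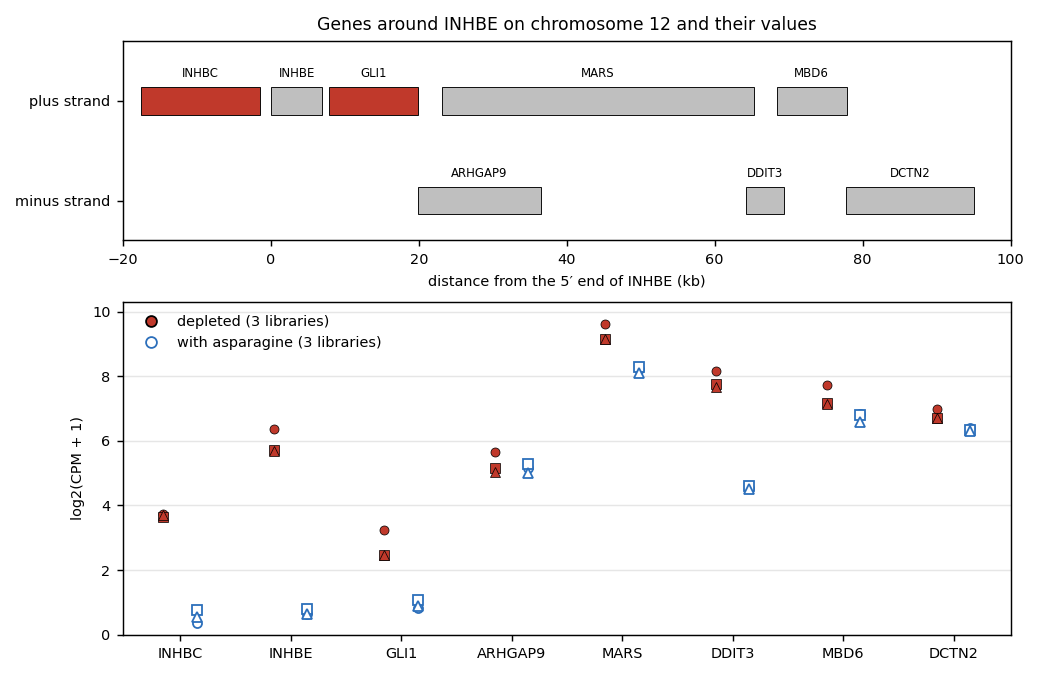
Upper panel, genes around INHBE drawn to scale by distance from its 5′ end in kilobases, on either strand, with the members INHBC and GLI1 in red. Lower panel, log2(CPM + 1) of each gene in the 3 depleted libraries (red) and the 3 libraries with asparagine (blue). INHBC, INHBE and GLI1 lie near 0 with asparagine, while ARHGAP9 next to them has overlapping groups. R3HDM2, on the other side of INHBC, is not drawn.

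Of all chromosomes, 20 held the most members: 7, GDAP1L1, BMP2 and TOX2 among them, or 11.3% of the set, against 2.78% of the table's genes. The overlapping MATN4 and RBPJL are both among the 7. Other chromosomes lay on either side of their share, such as 12 above (9.68%, against 5.43%) and 19 below (1.61%, against 7.54%). Of the 59 members with a GENCODE position, 8 (13.6%) overlapped another gene of the table, against 30.1% of all its genes, and the median gap to the nearest gene of the table was 35810 bases, against 2311. That nearest gene was called higher for 24 of the 59 members (40.7%), against 23.8% over all genes of the table, and lower for 8 (13.6%, against 26.7%). Leaving out the 3 members whose nearest gene itself met both bounds, it was higher for 21 of 56 (37.5%). Without any 1 library other than depleted library 1 the count higher was 13 to 16 of 59 (22.0% to 27.1%), against 13.7% to 16.4% in the table, and without depleted library 1 it was 32 (54.2%), against 39.7%. FBXO39 lies 575 bases from XAF1, an interferon-induced gene on the same strand that averaged 167 CPM in depleted cells and 37.2 CPM with asparagine. RAB30 lies 142 bases from RAB30-AS1 (11.6 CPM in depleted cells, 5.28 CPM with asparagine). These shares are descriptions of where the members lie, with no test. When every GENCODE gene is counted, also those outside the deposited table, at least 1 on the opposite strand overlaps 37 of the 59. The same share over all genes was not computed, so nothing is read from this count.

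The depleted libraries did not agree gene by gene. Depleted library 1 gave the highest depleted value for 24 members, the lowest for 31 and the middle one for 7. Transcript GC content moved with this: its median was 57.8% in the 22 of the first set with a value and 45.6% in the 31 of the second. The table as a whole showed the like, with library 1 highest for 51.4% of genes (median GC content 57.3%) and lowest for 43.5% (43.2%). Over 59 members, which share the same 3 libraries, Pearson's r between GC content and the log2 ratio of depleted library 1 to the mean of libraries 2 and 3 was 0.80 and Spearman's rho was 0.84, given as a description. With the table's genes in 5 equal classes of GC content, the members' median ratio was 0.635 in the lowest class (6 members), 0.667 (15), 0.866 (16), 1.40 (15) and 1.61 in the highest (7). KLHDC1 had the lowest ratio, 0.395, and GLI1 the highest, 1.86. Median GC content itself was 49.9% for the members and 49.9% for the table. After a lowess correction for GC content in each library the members' median log2 fold change was 2.42, from 1.12 for GEM to 4.73 for GDAP1L1. The correction moved the GC-poor SPX from 3.08 to 2.38 and the GC-rich KLHDC7B from 3.81 to 4.53, and reversed none of the 59. For 34 of the 59 the move reached the SD of that member's log2(CPM + 1) over the 3 depleted libraries.

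**Figure D4:**
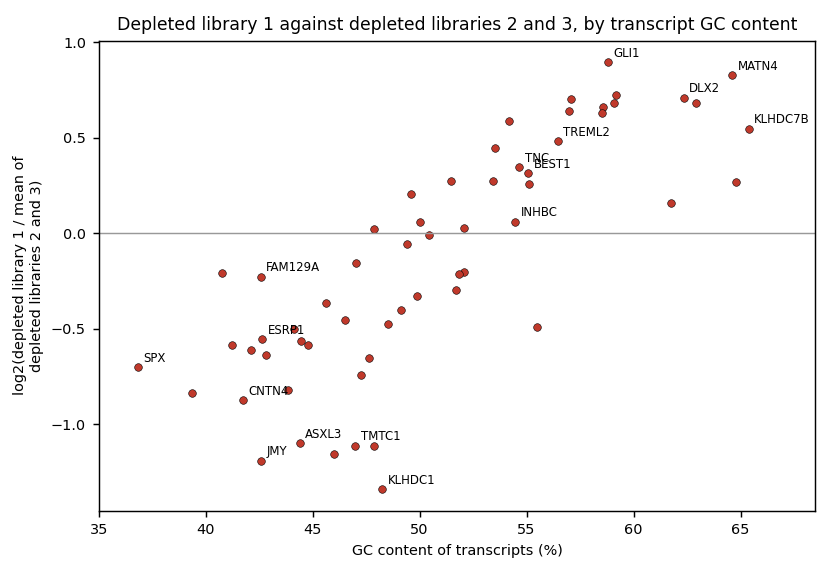
Log2 ratio of depleted library 1 to the mean of depleted libraries 2 and 3 (y axis) against transcript GC content in percent (x axis) for the 59 members with a value, 1 point per gene. Points rise from the lower left (SPX, CNTN4, JMY) to the upper right (GLI1, MATN4, DLX2), with Pearson's r of 0.80 over genes.

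The libraries with asparagine differed too. Library 1 of that group had the highest of the 3 values for 36 of the 62 members, against 23.4% of all genes in the table, and for 21 of the 26 members with 35 reads or fewer in the group. TG had 0.675 CPM there against 0.138 and 0.120 CPM in libraries 2 and 3 of the group, RBPJL 0.562 against 0.0276 and 0.199 CPM, and CNTNAP2 0.394 CPM against 0 and 0. Without it the ratio of group means was more than 1.5 times higher for 11 members: TMTC1, BMP2, DLX2, ALPK2, TG, ROR1, MYHAS, ASXL3, RBPJL, JMY and THSD4. For BMP2 it was then 141-fold, against 83.0-fold with all libraries, and for DLX2 207-fold, against 84.9-fold. SPX and CNTNAP2 then had no read with asparagine. Leaving out any other library moved no member's ratio by more than 1.5 times; these ratios were computed after the data were seen. Without library 1 with asparagine the members' median log2 fold change was 2.61.

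Just inside the bounds were ANKRD24, PPIL6 and SCN11A, with lowest depleted values of 3.03, 3.07 and 3.07 CPM, and PARD3B, KLHDC1 and TREML2, with means of 0.982, 0.980 and 0.912 CPM with asparagine. Just outside on the depleted side were CEP112, CCT6B and NR4A2, each with 2.93 CPM in depleted library 1 and with means of 0.747, 0.876 and 0.452 CPM with asparagine. On the other side were STC2, LOC100507250 and VLDLR-AS1, with means of 1.01, 1.028 and 1.04 CPM with asparagine and lowest depleted values of 40.2, 3.50 and 6.60 CPM. NR4A2, a nuclear receptor gene of the immediate early response, had 2.93, 2.94 and 3.11 CPM in depleted libraries 1, 2 and 3.

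Among 40 symbols listed as targets of the ATF4 amino acid response, with FAM129A under both its names, 31 were in the table; 24 were called higher and 1 lower (25.1% and 26.2% of all genes), with a median log2 fold change of 1.82, against 0.01 over all genes. With values corrected for GC content 27 were higher and 3 lower, beside 4067 and 3984 over all genes. FAM129A, which the rule chose by these same values, was the only member on that list. Its largest changes besides FAM129A were in TRIB3 (441 ± 113 CPM in depleted cells, 22.7 ± 3.08 CPM with asparagine, log2 fold change 4.20), PPP1R15A (462 ± 96.3 CPM in depleted cells, 25.5 ± 2.39 CPM with asparagine, log2 fold change 4.11) and SESN2 (253 ± 66.1 CPM in depleted cells, 16.6 ± 0.0349 CPM with asparagine, log2 fold change 3.82), each SD over n = 3 and each with a limma adjusted p under 0.05. TRIB3 is a pseudokinase, PPP1R15A directs eIF2 dephosphorylation and SESN2 restrains mTORC1, and none was near silent with asparagine. ASNS, the asparagine synthetase gene, was called neither higher nor lower. It averaged 8.77 CPM in depleted cells and 11.2 CPM with asparagine (log2 fold change -0.33, limma adjusted p = 0.0943). Without the GC correction, the gene called lower was ALDH18A1, with 112 CPM in depleted cells and 244 CPM with asparagine.

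All 12 listed markers of a B-cell precursor were in the table, with summed levels of 4036 to 5494 CPM in depleted libraries and 5561 to 6018 CPM with asparagine. Of these, 6 were called lower and 1 higher (PAX5). The surrogate light chain genes VPREB1 and IGLL1 were the lowest by fold change: VPREB1 averaged 120 ± 42.9 CPM in depleted cells and 438 ± 17.4 CPM with asparagine, and IGLL1 256 ± 140 CPM in depleted cells and 854 ± 70.8 CPM with asparagine (SD, n = 3 each, limma adjusted p = 0.00116 and 0.00477). Markers of other lineages were few. Of 12 epithelial markers ESRP1 alone was listed, and EPCAM, CDH1 and the keratins were not in the table. Of 10 neural markers 2 were, SYT1 and MAP2; they summed to 214 to 359 CPM in depleted libraries and 40.6 to 51.3 CPM with asparagine, and both were called higher (limma adjusted p = 0.000347 and 0.00072). SNAP25, STMN2, GAP43, TUBB3, NEFL, GAD1, GFAP and SOX2 were not in the table, and no link of SYT1 or MAP2 to any member was tested. No endothelial (6), hepatocyte (6) or germ line (7) marker was listed. Of 10 T and NK cell markers 1 was listed (NKG7), of 10 myeloid 3, of 8 erythroid and megakaryocytic 1 and of 9 fibroblast and muscle 4; in these 4 lists ACTA2 was called higher, and ITGA2B, COL1A1 and PDGFRB were called lower.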

How the data were processed

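RNA of 6 RS4;11 samples was sequenced. The submitters' processing notes name FastQC, STAR, Subread and featureCounts, and build GRCh38. Tool versions, annotation, strand setting and the scaling method were not stated there. The authors deposited 1 table with a normalized CPM signal for each gene symbol. Its columns were matched to samples by arm and replicate number. Within 1e-06 of a read, 100% of values in a column were multiples of the same step, and reads were inferred by taking 1 step as 1 read. Too few low values were available for an independent check of this, so the values were treated as scaled signal; read numbers, counting intervals and the limit for ESRP1 rest on the inference.

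The log2(CPM + 1) values of the 11892 genes that reached 1 CPM in 3 or more libraries were fitted by limma (3.58.1, under R 4.3.3), with an intensity trend, group as the only term and two-sided Benjamini-Hochberg adjusted p-values at 0.05. Values of 1 member are not reported here, though it is in the counts. Members were described, not tested; members and lists were chosen with earlier results of these data known. The rule for named genes allowed every member, 3 genes on each side of each bound and up to 4 genes per list. ASNS and ALDH18A1 were named beyond that rule. Role groups were assigned after values were seen. Positions, exon length and GC content came from GENCODE 29 on GRCh38 (97.5% of symbols with a GC value), positions of LOC symbols and promoter windows from RefSeq GRCh38.p14. Counting intervals are exact binomial and cover counting error only. Same-numbered libraries were not paired: their deviations correlated at 0.08, -0.65 and 0.69.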

Additional observations from a re-analysis of the deposited data

How the results depend on the processing

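The rule found 62 members as given. It found 61 to 68 when a library was left out and 66 with columns rescaled to the same total, 36 with a mean under 0.5 CPM with asparagine and 31 with at least 5 CPM in each depleted library. It found 84 with at least 2 CPM in each depleted library and 53 with each library with asparagine under 1 CPM. The members' median log2 fold change was 3.66 and 1.30 with pseudocounts of 0.25 and 4 CPM, 3.42 over the 31 members left by a filter at 5 CPM, and 2.46 to 2.61 without single libraries. No member's log2 fold change changed sign in the 14 alternatives that gave one. Those tested were called higher in each of 17 alternatives. Nothing is read from either, since the rule used these values.

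Over all genes, 1728 to 4812 were called higher and 1814 to 4913 lower when a library was left out. Leaving out depleted library 1 gave 4812 higher and 4913 lower. Leaving out depleted library 2 gave 1902 higher and 1975 lower. Of the cells with asparagine, omitting library 1 gave 1756 higher and 1845 lower, and omitting library 2 gave 1728 higher and 1814 lower. The cause was not tested. A threshold of 0.01 gave 1612 and 1703. Correction for GC content gave 4067 higher and 3984 lower, and in the ATF4 list 27 higher and 3 lower; without depleted library 1 that list had 25 higher and 3 lower. With the replicate number as a block the counts were 2824 and 2989, and the libraries share only a number. The count model planned on inferred reads was not run, because that inference could not be checked on enough low values. Depth limits the ratios of the 8 members with 10 reads or fewer with asparagine.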
